A study of Mus musculus with 18 samples.

Results

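C2C12 is a line of mouse myoblasts, muscle precursor cells that divide in serum-rich growth medium (GM) and leave the cell cycle to fuse into myotubes in differentiation medium. The comparison is between stable C2C12 lines in GM: 3 libraries of cells transfected with px459-Mk5sg, a Cas9 plasmid with a guide against the gene of the kinase MK5, and 3 libraries of cells transfected with a control plasmid. These 6 libraries were chosen by their labels out of 18 in the series. The other 12 are cells transfected with px459-Mapk6sg, a guide against the gene of the kinase ERK3, in GM, and all of the lines after 2 days of differentiation (DM2). Every group has 3 libraries, and all were made from poly-A RNA. The labels do not say whether a line is a clone or a pool, or whether the 3 libraries of a group are separate cultures, so p-values measure only the spread between these libraries.

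MK5, encoded by Mapkapk5, is a serine/threonine kinase that binds the atypical MAP kinases ERK3 and ERK4 and is activated by them. The title of the series places ERK3 and MK5 upstream of the degradation of FoxO3, a transcription factor whose family activates genes for cell cycle arrest, stress resistance and protein breakdown. The GM comparison asks which transcripts already differ while the myoblasts still divide. Only RNA was measured, so neither MK5 nor FoxO3 protein can be read from these data.

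The libraries held 18.2 to 23.4 M reads counted in genes (M is 1e6). Values below are CPM (counts scaled to 1e6 per library) unless another unit is named, and log2 fold changes are MK5-depleted minus control, ± standard error. A gene is called where the Benjamini-Hochberg adjusted p of edgeR's quasi-likelihood test lay under 0.05. The defining myoblast markers were all detected: 12 of 12 were above 1 CPM in at least 1 library, with a summed level of 2630 to 2959 CPM in control and 3028 to 3462 in MK5-depleted libraries. Of 9 osteoblast and chondrocyte markers 6 were under 1 CPM in all 6 libraries, but the list summed to 4334 to 5391 CPM in control and 4388 to 4609 in MK5-depleted libraries, nearly all of it Spp1, the secreted phosphoprotein osteopontin (4227 to 5287 CPM). The summed level of adipocyte markers was 62.4 to 63.8 CPM in control and 51.1 to 59 in MK5-depleted libraries, that of epithelial markers 39.6 to 54 and 31.9 to 41.1, and that of macrophage and leukocyte markers 15.3 to 21.4 and 11.8 to 17.2. Markers of neurons summed to at most 2.96 CPM and those of endothelial cells to at most 0.746. The part of other cell types in the results was not tested. Control library 2 stood apart from the other controls. On the first principal component of the 6 libraries it lay at 33.5, control 3 at 19.32 and control 1 at 6.39, against -24.52, -7.39 and -27.31 for MK5-depleted libraries 1 to 3. In 80.6% of the called genes it was the control library farthest from the MK5-depleted side, so results are also given without it. Of the 6 libraries, control library 2 also had the lowest share of stranded counts in the reverse column (93.8%). Its share of reads outside genes (5.11%) and its number of genes with a count (19154) were the highest. Whether these measures bear on its expression values was not tested.

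Mapkapk5 was detected below control in every MK5-depleted library by the transcript estimates. Its deposited TPM (transcript level per length, scaled to 1e6 per library) read 52.77, 59.37 and 54.27 in the control libraries and 30.86, 33.42 and 35.65 in the MK5-depleted ones, and the groups did not overlap. With the deposited RSEM expected counts, the log2 fold change was -0.68 and was called (edgeR adjusted p = 0.000246). The uniquely assigned read counts of the main test were far sparser, with 18, 27 and 19 reads in control and 17, 17 and 11 in MK5-depleted libraries, and there the log2 fold change of -0.55 ± 0.27 was not called (edgeR adjusted p = 0.232). In the annotation the predicted gene Gm42878 overlaps Mapkapk5 on the same strand, and it held 1 to 3 reads in each of these libraries. In ERK3-depleted GM Mapkapk5 stood at -0.51 against control by the read counts (not called, edgeR adjusted p = 0.275). Its TPM there read 55.16, 60.5 and 63.11, so the read counts did not set the MK5-depleted line apart and the TPM did. An RNA level does not show whether intact protein is made from it.

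**Figure D1:**
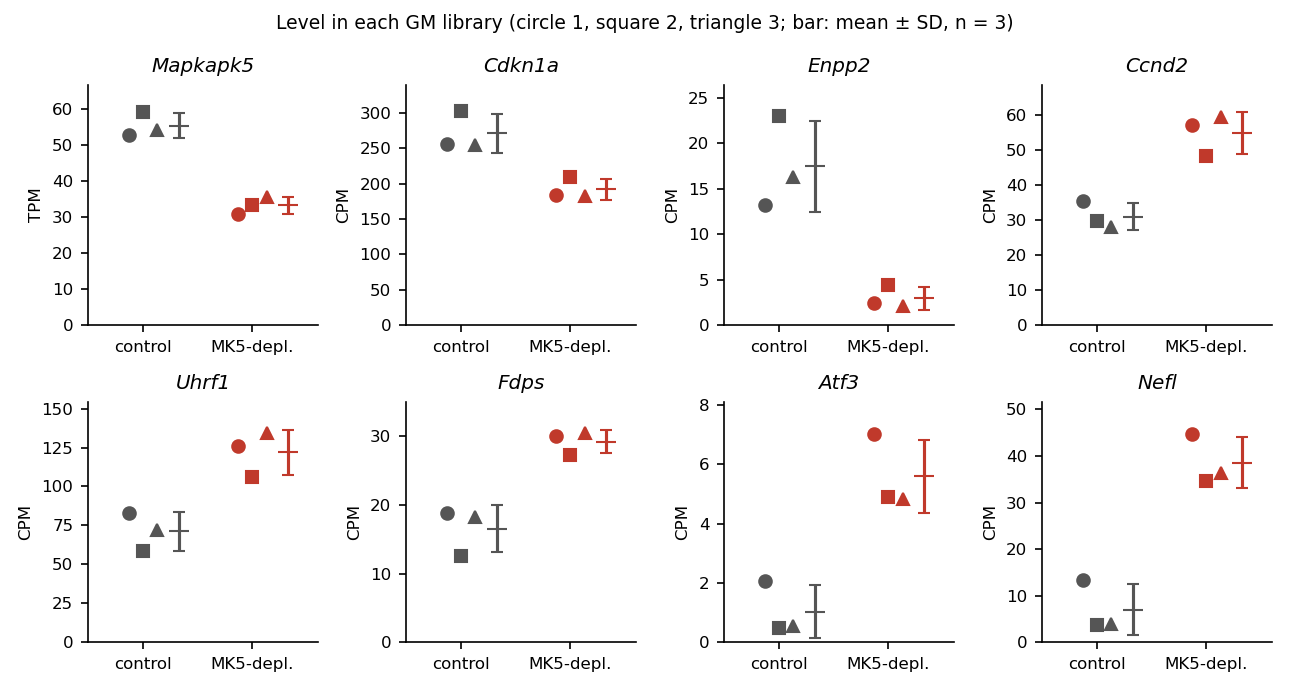
Level of 8 genes in each GM library, with deposited TPM for Mapkapk5 and CPM for the others on axes that start at 0; grey symbols are control and red symbols MK5-depleted libraries, the symbol shape gives the library number, and the bars give mean ± SD (n = 3). Mapkapk5, Cdkn1a and Enpp2 were lower in all 3 MK5-depleted libraries than in any control library, and Ccnd2, Uhrf1, Fdps, Atf3 and Nefl were higher.

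Of 13939 genes tested, 1178 were called (8.45%): 657 were higher in MK5-depleted cells (4.71%) and 521 lower (3.74%). Most changes were small, and 60 genes rose and 101 fell by more than 2-fold. The median over all tested genes was -0.01. Genes whose 3 libraries of a group lay entirely on one side of the other group numbered 2297 higher (16.5%) and 2180 lower (15.6%). With the replicate number as a block, 2045 genes were called, which included 1177 of the 1178. Without control library 2 the number fell to 42 (22 higher, 20 lower). In that fit all 1178 genes kept their direction, and their median change was 85.7% of the size with all libraries. These genes were chosen with all libraries, most of which that fit shares, so the kept direction is not independent support. Without MK5-depleted library 1, MK5-depleted library 3 or control library 3 the test called 212, 156 and 358 genes.

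The genes of DNA replication rose almost as a block. Of the 37 tested genes of this list, 34 were higher and 0 lower, against 4.71% of all genes higher, and the median log2 fold change was 0.56. Mcm10, which helps load the replication machinery at origins, read 19.9, 12.1 and 18.8 CPM in control and 35.0, 27.3 and 34.6 in MK5-depleted libraries. Every depleted library was above every control, and the gene rose 1.91-fold (log2 0.94 ± 0.17, edgeR adjusted p = 0.00642). Uhrf1, which recruits the maintenance DNA methyltransferase behind the fork, went from 83.1, 58.4 and 72.4 to 126, 106 and 134 CPM (log2 0.78 ± 0.14, adjusted p = 0.00631). Rrm2, the small subunit of ribonucleotide reductase, held 286, 158 and 206 CPM in control and 399, 304 and 412 in depleted libraries (log2 0.78 ± 0.19, adjusted p = 0.0187). The helicase subunits Mcm2 (0.65), Mcm3 (0.73), Mcm4 (0.58), Mcm5 (0.72), Mcm6 (0.46) and Mcm7 (0.47) were all called. Slbp, Rfc3 and Pcna were the tested members not called, with log2 values of 0.10, 0.30 and 0.55. Without control library 2 the list's median was 0.51 and 2 members were called.

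Mitosis and kinetochore genes shifted by a similar amount with a wider spread between control libraries. All 32 tested members had a positive log2 fold change, 16 were called (50%, against 4.71% of all genes higher), and the median was 0.58. Aurka, the kinase of spindle poles, read 73.2, 47.0 and 54.5 CPM in control and 98.5, 86.9 and 91.6 in MK5-depleted libraries (log2 0.67 ± 0.17, edgeR adjusted p = 0.0208). Cdca8, a subunit of the chromosomal passenger complex, rose from 73.3, 49.8 and 58.4 to 102, 88.9 and 99.8 CPM (0.68 ± 0.15, adjusted p = 0.0124), and Tpx2, which activates Aurka on the spindle, from 174, 105 and 134 to 229, 192 and 228 CPM (0.66 ± 0.18, adjusted p = 0.0325). Control library 1 lay closest to the depleted libraries in each of these genes. With the replicate block 31 members were called, and without control library 2 none was, with a median of 0.44.

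At the G1 step several cyclins rose and the inhibitor p21 fell, while another CDK inhibitor, Cdkn2d, rose. Ccnd2, the D-type cyclin that activates CDK4 and CDK6, rose from 35.4, 29.8 and 28 CPM to 57.2, 48.3 and 59.5 (1.77-fold, log2 0.83 ± 0.13, edgeR adjusted p = 0.00349) and stayed called without control library 2 (0.80, adjusted p = 0.0392). Ccne1, the cyclin of CDK2, held 27.3, 18.2 and 26.6 CPM in control and 44.3, 33.7 and 42.6 in depleted libraries (0.75 ± 0.22, adjusted p = 0.0441), and E2f2, an activating E2F factor, rose from 17.3, 9.84 and 15.0 to 25.0, 19.9 and 22.7 (0.69 ± 0.19, adjusted p = 0.0325). Cdkn1a, which encodes p21, read 256, 303 and 254 CPM in control and 184, 209 and 183 in MK5-depleted libraries. The groups did not overlap, and Cdkn1a fell 1.41-fold (log2 -0.50 ± 0.09, adjusted p = 0.00499, and -0.41 with adjusted p = 0.0569 without control library 2). Of the 20 tested genes of G1 cyclins, their kinases and inhibitors, 7 were higher (35%, against 4.71% of all genes, and 11 genes with the replicate block). Cdkn1a alone was lower (5%, near the 3.74% of all genes). The other members called higher were Ccnd3, E2f1, Rbl1 (0.54) and the CDK inhibitor Cdkn2d (0.47). Ccnd1, Cdk4 and the CDK inhibitors Cdkn1b and Cdkn2c were not called (log2 0.08, 0.22, -0.09 and 0.37).

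Of the promoter table in RefSeq (GRCm38.p6), windows were matched by symbol for 10133 tested genes, and the 250 bases before the start were searched on both strands. TTTGGCGC or TTTCCCGC, forms of the site bound by E2F factors, stood in 20% of 35 windows of the replication genes, against 2.34% of all 12968 windows. The 7 replication genes holding one were all called, which is near the share of the whole list, with 34 of 37 tested members called. Of the windows of all genes called higher 5.50% held it, and of those called lower 0.192%. TTTGAA, the cell cycle homology region that binds the complex repressing mitotic genes in G1, stood in 34.6% of 26 windows of the mitosis genes and 10.5% of all windows. Of the 9 mitosis genes holding it 4 were called, against 16 of the 32 tested members of the list. TTTGAA was searched after the values were seen. In 1 of the 303 windows with an E2F site and 19 of the 1359 with TTTGAA the match overlapped another searched motif. Also searched were the E-box CAGCTG, the AP-1 site TGANTCA, the TEAD site GGAATG and SRF sites (0.0848% of all windows). CAGCTG stood in 12.6% of all windows, 11.3% of those of genes called higher and 18.6% of those called lower. In the same order TGANTCA stood in 4.62%, 4.83% and 6.72%, and GGAATG in 10.8%, 9.17% and 11.9%. These shares carry no test and a match is not evidence of binding. The windows of Mcm6, with 2 E2F matches 110 and 47 bases before the start, and of Top2a, the topoisomerase of chromosome segregation, with 2 matches of TTTGAA, 179 and 23 bases before the start, are shown as examples, with the motif on either strand in capitals. Mcm6 is at chr1:128359706-128359955 on the minus strand and Top2a at chr11:99024190-99024439 on the minus strand.
Mcm6: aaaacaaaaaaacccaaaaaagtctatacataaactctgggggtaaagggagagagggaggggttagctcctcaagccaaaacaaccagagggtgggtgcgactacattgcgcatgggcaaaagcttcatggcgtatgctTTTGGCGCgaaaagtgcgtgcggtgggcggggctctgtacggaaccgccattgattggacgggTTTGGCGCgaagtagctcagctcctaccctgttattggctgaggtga
Top2a: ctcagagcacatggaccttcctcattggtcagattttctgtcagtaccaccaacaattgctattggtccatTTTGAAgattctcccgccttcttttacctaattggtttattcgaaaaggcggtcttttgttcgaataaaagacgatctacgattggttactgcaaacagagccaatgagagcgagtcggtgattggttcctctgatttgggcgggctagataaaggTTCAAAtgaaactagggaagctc

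**Figure D2:**
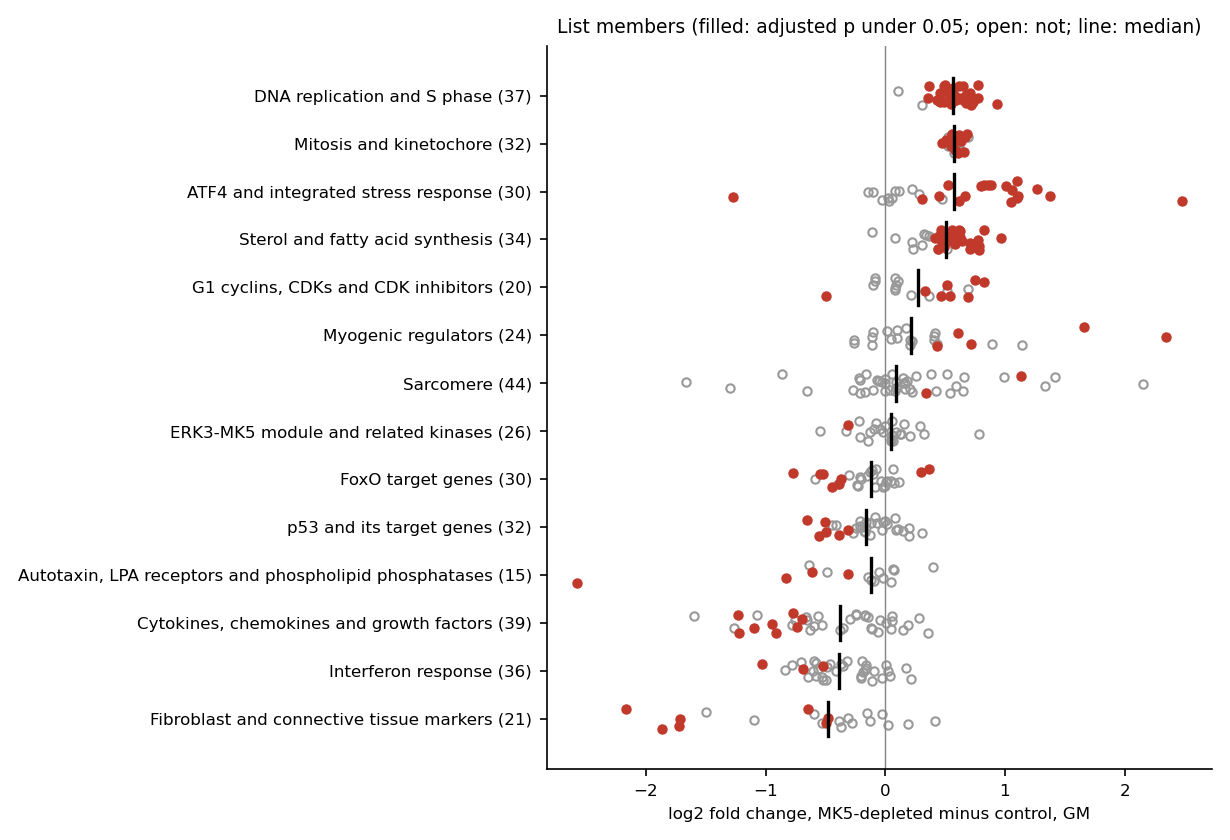
Log2 fold change in GM (MK5-depleted minus control) of every tested member of 14 gene lists, with the number tested in brackets; filled red points are genes with an adjusted p under 0.05, open points the others, and the black line is the median. The replication and mitosis lists lie at medians of 0.56 and 0.58 with no negative member, and the connective tissue list at -0.48.

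Amino acid synthesis and transport genes that ATF4 activates were higher in the depleted cells. ATF4 is the transcription factor of the integrated stress response, translated when amino acids run short or proteins misfold. Of 30 tested members of this list 18 were higher (60%, against 4.71% of all genes) and 1 lower, with a median of 0.57. The called members held the serine and glycine pathway (Phgdh 1.01, Psat1 0.89, Shmt2 0.83, Mthfd2 0.86 and Aldh1l2 1.1 on the log2 scale), asparagine synthetase (Asns, 1.1), the transporters Slc7a5 (1.05) and Slc7a1 (0.52), and the regulators Trib3 (1.27) and Chac1 (1.05). Atf4 itself rose by less (0.31). Atf3, a stress-induced transcription factor, read 2.08, 0.483 and 0.551 CPM in control and 7.03, 4.90 and 4.85 in MK5-depleted libraries, a 5.57-fold rise (log2 2.48 ± 0.55, edgeR adjusted p = 0.0140). Slc7a11, the cystine transporter, rose from 1.33, 0.922 and 1.1 to 3.35, 2.14 and 3.16 CPM (1.37 ± 0.32, adjusted p = 0.0163), but by 0.27 with the RSEM expected counts and 0.30 with unstranded counts, where it was not called. The fall in the list was Vldlr, a lipoprotein receptor, from 0.907, 1.01 and 1.05 to 0.502, 0.534 and 0.158 CPM (-1.27 ± 0.35, adjusted p = 0.0319). Ddit3, which encodes the apoptosis factor CHOP, was not called (0.28), and none of the 23 tested chaperone and unfolded protein genes of the endoplasmic reticulum was (1 with the replicate block), Hspa5 standing at 0.18. Without control library 2 the median of the ATF4 list was 0.49 and no member was called.

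TGATGNAA, the core of the composite C/EBP-ATF site, was also chosen after the values were seen. It stood in 20.6% of 34 windows of this list and in 2.00% of all windows, and in 6 of those 260 windows the match overlapped another searched motif. Of the 7 members with it, 5 were called: Asns, Atf3, Chac1 and Slc7a11, which rose, and Vldlr, which fell. Of all 30 tested members of the list 18 were called higher and 1 lower. The window of Asns (chr6:7693210-7693459 on the minus strand) has it 23 bases before the start, and that of Atf3 (chr1:191183334-191183583 on the minus strand) 110 bases before, read on the other strand, with the match in capitals.
Asns: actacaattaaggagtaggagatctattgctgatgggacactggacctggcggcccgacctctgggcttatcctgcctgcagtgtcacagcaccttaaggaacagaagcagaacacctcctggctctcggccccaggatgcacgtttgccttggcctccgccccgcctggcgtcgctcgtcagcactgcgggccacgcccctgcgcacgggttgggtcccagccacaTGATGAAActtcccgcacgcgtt
Atf3: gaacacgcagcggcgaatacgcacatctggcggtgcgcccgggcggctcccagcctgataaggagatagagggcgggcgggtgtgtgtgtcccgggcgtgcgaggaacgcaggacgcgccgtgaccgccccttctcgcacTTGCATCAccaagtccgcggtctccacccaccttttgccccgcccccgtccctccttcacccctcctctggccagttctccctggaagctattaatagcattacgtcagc

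Cholesterol and fatty acid synthesis genes rose as well. These genes are driven by SREBP factors when membrane sterol is low. Of 34 tested members 24 were higher (70.6%, against 4.71% of all genes) and 0 lower. The median was 0.51, and Insig2 alone had a negative value (-0.12, not called). Fdps, which makes farnesyl pyrophosphate, went from 18.8, 12.6 and 18.2 CPM in control to 30, 27.3 and 30.4 in MK5-depleted libraries (log2 0.82 ± 0.15, edgeR adjusted p = 0.00562), and Fads2, a desaturase of polyunsaturated fatty acids, from 102, 59.1 and 87.3 to 151, 133 and 144 (0.79 ± 0.23, adjusted p = 0.0441). Insig1, which holds SREBP precursors in the endoplasmic reticulum (0.78), and the fatty acid synthase Fasn (0.56) were called, whereas Srebf1 and Srebf2 were not (0.23 each). Without control library 2 the list's median was 0.37, and 3 members were called. TCACNCCAC, an SREBP site chosen after the values were seen, stood in 3.33% of 30 windows of the list and in 1.0% of all.

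**Figure D3:**
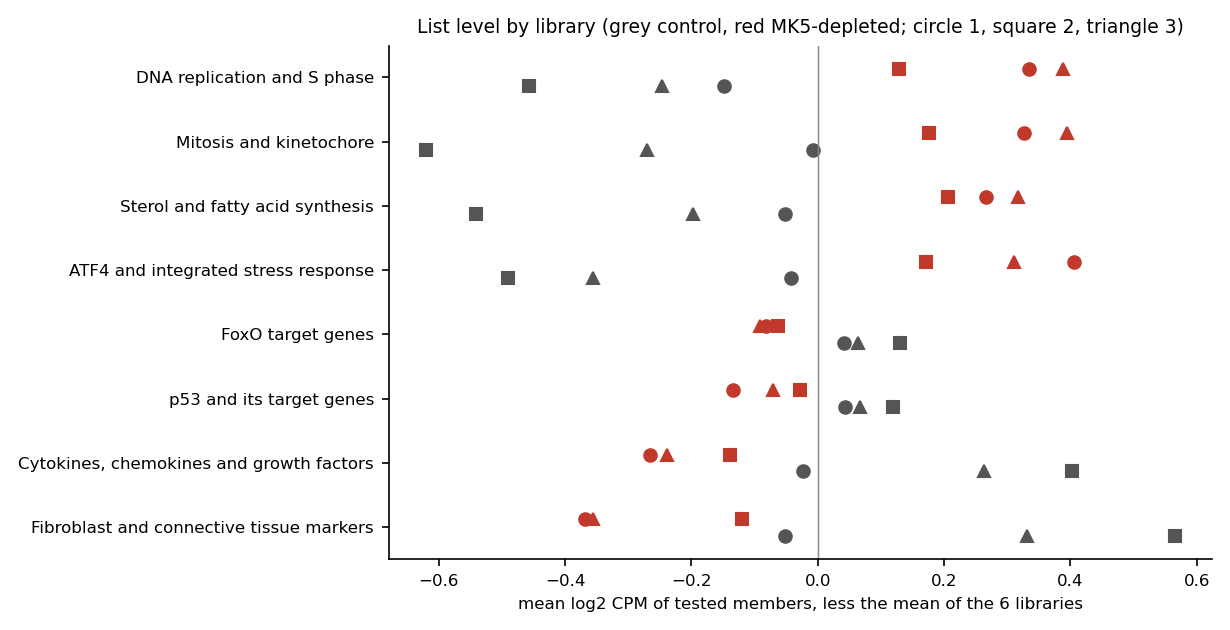
Level of 8 gene lists in each GM library, as the mean log2 CPM of the tested members less the mean of the 6 libraries; grey symbols are control, red MK5-depleted, and the symbol shape gives the library number. In all 8 lists the groups do not overlap, and control library 2 is the control farthest from the MK5-depleted libraries, as for mitosis genes at -0.62 against -0.01 in control library 1.

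FoxO target genes tended to lower values, with single members on both sides. Of 30 tested, 6 were lower (against 3.74% of all genes) and 2 higher, and the median was -0.12. Foxo3 itself was at 62.9, 73.2 and 66.1 CPM in control and 55.8, 53.7 and 53.6 in MK5-depleted libraries, without overlap (log2 -0.31 ± 0.09, edgeR adjusted p = 0.0399). This call was lost in 8 of the alternatives, among them RSEM expected counts (adjusted p = 0.0517) and the fit without control library 2 (-0.25, adjusted p = 0.257). Txnip, a thioredoxin inhibitor that limits glucose uptake, fell from 95.4, 186 and 137 to 85.1, 89.6 and 70.7 CPM (-0.77 ± 0.18, adjusted p = 0.0153, and -0.51 with adjusted p = 0.129 without control library 2), and Gadd45a, a DNA damage and growth arrest protein, from 79.2, 82.1 and 77.5 to 58.2, 57.9 and 47.4 (-0.55 ± 0.12, adjusted p = 0.0109). Sesn3, an inhibitor of mTORC1, fell from 89.6, 96.8 and 93.1 to 65.4, 63.9 and 66.0 (-0.52 ± 0.12, adjusted p = 0.0151). Fbxo32, the muscle ubiquitin ligase atrogin-1, was also lower (-0.44), as were Sesn1 (-0.39) and the repressor Bcl6 (-0.37). Sod2, the mitochondrial superoxide dismutase, and the translation inhibitor Eif4ebp1 were higher (0.30 and 0.37). TGTTTAC, a FoxO site, stood in 13.3% of 30 windows of the list and 2.14% of all, in 4.22% of windows of genes called lower and in 1.33% of those called higher, and in 6 of the 277 windows with it the match overlapped another motif. Of the 4 list members with it, Txnip was called, and its window (chr3:96557707-96557956 on the plus strand) holds the match on the other strand 121 bases before the start, in capitals.
Txnip: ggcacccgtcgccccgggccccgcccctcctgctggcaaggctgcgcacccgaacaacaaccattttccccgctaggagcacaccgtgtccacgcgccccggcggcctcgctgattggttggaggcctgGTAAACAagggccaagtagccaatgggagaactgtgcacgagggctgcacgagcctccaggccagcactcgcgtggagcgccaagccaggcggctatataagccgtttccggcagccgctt

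A minority of the other p53 targets fell along with Cdkn1a. Of 32 tested genes of this list, 6 were lower (18.8%, against 3.74% of all genes) and 0 higher, with a median of -0.16. The 6 include Cdkn1a itself and Sesn1, which is also counted in the FoxO list. Trp53inp1, a p53-induced autophagy and death protein, read 65.0, 72.1 and 70.9 CPM in control and 33.7, 47.6 and 50.8 in MK5-depleted libraries (log2 -0.66 ± 0.17, edgeR adjusted p = 0.0254). Ephx1, an epoxide hydrolase, fell from 204, 293 and 238 to 145, 200 and 157 CPM (-0.55 ± 0.13, adjusted p = 0.0167), and the receptor Eda2r from 21.3, 25.8 and 25.1 to 15.7, 16.5 and 18.9 (-0.51 ± 0.15, adjusted p = 0.0474). Mdm2, the ligase of p53, and the pro-apoptotic Bax and Bbc3 were not called (-0.16, 0.10 and 0.02).

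Of the genes with a mean of at least 5 CPM in control that the naming rule picked, Enpp2 fell most. It encodes autotaxin, the secreted enzyme that makes the growth-promoting lipid lysophosphatidic acid. Its CPM read 13.2, 23.0 and 16.3 in control and 2.39, 4.37 and 2.06 in MK5-depleted libraries, so the highest depleted library was well under the lowest control. The fall was 5.98-fold (log2 -2.58 ± 0.39, edgeR adjusted p = 0.00306), and its call was kept under every alternative at the 0.05 threshold (-2.33, adjusted p = 0.0292 without control library 2). Its relatives Enpp3 (21.3, 31.5 and 23.5 CPM to 13.4, 16.8 and 12.8; -0.83 ± 0.15, adjusted p = 0.00595) and Enpp1 (77.8, 148 and 109 to 75.4, 75.1 and 68.5; -0.62 ± 0.18, adjusted p = 0.0412), which cleave nucleotides, were lower too, as was the lipid phosphatase Plpp1 (-0.31). The call of Enpp1 was lost in 8 of 17 alternatives, among them RSEM expected counts (adjusted p = 0.0600) and the fit without control library 2, where it stood at -0.36 (adjusted p = 0.335). None of the tested receptors of the lipid was called, with log2 values of -0.15 for Lpar1, 0.40 for Lpar2, -0.05 for Lpar3, 0.06 for Lpar4 and -0.02 for Lpar6. In all 4 of the 15 tested genes of this list were lower, against 3.74% of all genes, and 0 higher. Enpp2 alone was called without control library 2.

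A part of the connective tissue and matrix genes fell. Of 21 tested fibroblast markers 7 were lower and 0 higher, and the median was -0.48 (-0.35 without control library 2, where 0 were called). Dcn, the small proteoglycan decorin, read 7.09, 13.8 and 12.9 CPM in control and 3.10, 4.46 and 2.79 in depleted libraries (log2 -1.71 ± 0.37, edgeR adjusted p = 0.0128). Prg4, the joint lubricant lubricin, held 8.85, 33.1 and 17.8 CPM against 4.69, 6.36 and 5.43 (-1.87 ± 0.36, adjusted p = 0.00659), the control libraries themselves spreading from 8.85 to 33.1. The matrix proteins Dpt (-2.16) and Ogn (-0.65), the receptor Pdgfra (-0.49) and the surface proteins Pi16 (-1.72) and Cd34 (-0.48) were also lower. Of 45 tested matrix genes 7 were lower (15.6%, against 3.74% of all genes) and 3 higher (6.67%, near the 4.71% of all genes, and 8 genes with the replicate block). Col18a1, a basement membrane collagen, fell from 318, 421 and 343 to 200, 253 and 188 CPM (-0.76 ± 0.13, adjusted p = 0.00499) and Col6a2 from 172, 279 and 245 to 124, 152 and 104 (-0.87 ± 0.23, adjusted p = 0.0267), while the matricellular protein Postn rose from 123, 81.3 and 100 to 238, 159 and 214 (1.01 ± 0.19, adjusted p = 0.00677). The major fibrillar chains Col1a1 and Col1a2 were not called (0.34 and 0.03).

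A minority of secreted inflammatory factors was called lower in the depleted libraries. Of 39 tested cytokines, chemokines and growth factors 8 were lower (20.5%, against 3.74% of all genes) and 0 higher. Of the 39, 8 had a positive value, and the median was -0.38. The median was -0.31 without control library 2, and none was called. Ccl2, the monocyte chemokine, read 10.9, 28.6 and 17.3 CPM in control and 7.41, 8.44 and 8.49 in MK5-depleted libraries (log2 -1.23 ± 0.26, edgeR adjusted p = 0.00948, and -0.80 with adjusted p = 0.0913 without control library 2). The neutrophil chemokine Cxcl1 fell from 9.71, 21 and 17.8 to 5.07, 9.46 and 8.38 CPM (-1.09 ± 0.27, adjusted p = 0.0192). Cxcl5 had 26.9, 60.2 and 52.5 CPM against 11.7, 26.9 and 21.7, with the groups touching at 26.9, and lay at the threshold (-1.22 ± 0.37, adjusted p = 0.0499). Of 36 tested interferon response genes 31 had a negative value, and the median was -0.39. Of the 36, 3 were lower (8.33%, against 3.74% of all genes, and 5 genes with the replicate block). Among the 3 was Gbp2, an interferon-induced GTPase (9.71, 16.9 and 11.5 to 6.11, 7.09 and 5.43 CPM, log2 -1.03 ± 0.20, adjusted p = 0.00670). The mean level of the interferon list was 0.50 in control library 2, relative to the 6 libraries, and between -0.22 and 0.08 in the other 5, so the groups overlapped. The median of the interferon list was -0.09 without control library 2.

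Few sarcomere and calcium handling genes were called in GM, and a larger share of the myogenic regulators. Of 44 tested sarcomere genes 2 were higher (4 with the replicate block) and 0 lower, and of 24 calcium handling genes none was called, a share at or under that of all genes. Of 24 myogenic regulators 5 were higher (20.8%, against 4.71% of all genes) and 0 lower. These were 4 transcriptional repressors or inhibitors of the E-protein pathway besides the 1 activator Myod1. Msc, the repressor MyoR, read 0.693, 0.395 and 0.150 CPM in control and 2.55, 1.65 and 2.06 in depleted libraries (log2 2.34 ± 0.49, edgeR adjusted p = 0.00948), Hey1, a Notch-induced repressor, 1.81, 1.27 and 2.15 against 6.20, 4.22 and 6.06 (1.66 ± 0.26, adjusted p = 0.00306), and Id2, which sequesters E-proteins, 42.5, 32.1 and 37.9 against 59.8, 51.5 and 72.9 (0.71 ± 0.15, adjusted p = 0.0110). Id1 rose by 0.43. Myod1, the master activator of the lineage, went from 89.1, 60.8 and 68.8 to 130, 94.1 and 109 CPM (0.61 ± 0.13, adjusted p = 0.0108). Myf5, Pax7 and Myog were not called (0.20, 0.21 and 0.41). Among the fusion genes Cdh15, the myoblast cadherin, rose (157, 96.0 and 109 to 228, 163 and 189 CPM; 0.68 ± 0.15, adjusted p = 0.0134), and the fusogens Mymk and Mymx were not called (-0.12 and -0.36).

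The genes rising most among those at 5 CPM or more included neuronal cytoskeleton genes. Nefl, the light neurofilament chain, read 13.5, 3.73 and 3.96 CPM in control and 44.8, 34.6 and 36.4 in MK5-depleted libraries (5.54-fold, log2 2.47 ± 0.62, edgeR adjusted p = 0.0254). Stmn4, a tubulin-binding stathmin, rose from 9.01, 2.68 and 2.80 to 28, 22 and 23.1 CPM (2.36 ± 0.62, adjusted p = 0.0319) and the medium neurofilament chain Nefm from 4.27, 0.395 and 1.0 to 8.92, 6.31 and 10 (2.20 ± 0.59, adjusted p = 0.0306). Control library 1 was the highest control in these genes and lay under every depleted library, and without it Nefm stood at 3.61. Without control library 2 Nefl, Stmn4 and Nefm stood at 2.15, 2.06 and 1.69 and were not called (edgeR adjusted p = 0.164, 0.188 and 0.160). Their calls were also lost without control library 3, MK5-depleted library 1 or MK5-depleted library 3. Of 21 tested genes of the neuronal list 3 were higher (14.3%, against 4.71% of all genes, and 6 genes with the replicate block) and 0 lower. Without control library 2 the list's median was 0.135, against 0.178 with all libraries, and 0 members were called. Of 8 neuron markers Elavl4, Gad1 and Snap25 had no read in any of the 6 libraries, while Syt1 was at 1.34 to 2.30 CPM and Syp at 0.373 to 0.921. Atf3, Lrrn1 (2.35), Cmah (2.12), Siglecg (2.01), L1cam (2.00), Osbp2 (1.96) and Pdlim3 (1.93) completed the 10 that rose most. After Enpp2, Prg4 and Dcn, the 10 that fell most were Cilp (-2.15), Itgb4 (-1.55), Scn7a (-1.52), Cdhr1 (-1.51), Tspan8 (-1.49), Cp (-1.49) and Igfbp4 (-1.43).

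The list of the insulin-like growth factor system held 2 of the firmest calls. Of its 17 tested genes 2 were higher and 2 lower (11.8% each, against 4.71% and 3.74% of all genes), with a median of -0.10. With the replicate block 4 were higher and 5 lower. H19, an imprinted long noncoding RNA expressed with Igf2, read 1608, 826 and 1023 CPM in control and 3154, 2117 and 2745 in depleted libraries (2.32-fold, log2 1.21 ± 0.18, edgeR adjusted p = 0.00268). Igfbp4, which binds and restrains insulin-like growth factors, fell from 6.45, 9.84 and 8.31 to 2.30, 4.66 and 2.21 CPM (2.70-fold, -1.43 ± 0.21, adjusted p = 0.00268). Ccn2, the matricellular target of YAP, rose from 185, 133 and 129 to 412, 302 and 391 CPM (2.47-fold, 1.31 ± 0.21, adjusted p = 0.00326) and was the only one of the 22 tested YAP-TAZ target genes called (with the replicate block 1 was also lower), Ccn1 and Ankrd1 standing at -0.22 and 0.12. Of 30 tested ERK feedback and immediate early genes 2 were higher and 2 lower (6.67% each, near the shares of all genes, and 4 lower with the block). A negative value was held by 21 of the 30. Etv4, an ERK-induced ETS factor, rose (22.2, 23.4 and 21 to 33.8, 33.8 and 37.4 CPM, log2 0.66 ± 0.11, adjusted p = 0.00394). Spry1, a feedback inhibitor of the same pathway, fell (5.28, 5.71 and 6.91 to 4.23, 2.33 and 2.48 CPM, log2 -0.97 ± 0.20, adjusted p = 0.00884). The feedback phosphatase Dusp6 was not called (-0.60).

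Of the 81 genes that the naming rule picked, 79 were called, and 77 of those had groups that did not overlap, Cxcl5 being among the rest. Without control library 2 the call was lost in 69 of the 79. In that fit 0 genes were called in the FoxO, p53 and matrix lists, whose medians were -0.12, -0.12 and -0.06, while 2 of the G1 list and 1 of the myogenic list were called. A call was kept under every alternative at the 0.05 threshold by 8, among them Enpp2, Hey1, Ccn2, Igfbp4, H19, Scn7a and Cp.

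G6pc, the glucose-6-phosphatase of glucose release, was singled out after its values were seen. It held 15, 20 and 7 reads in the control GM libraries and 0 in each MK5-depleted one (edgeR adjusted p = 0.00946). At 0.676 ± 0.285 CPM (SD, n = 3) in control, it was at least 4.73-fold lower against a floor of 3 reads per depleted library. It also had 7, 18 and 8 reads in the control DM2 libraries and 0 in all the other depleted libraries, ERK3 and MK5, in both media. No other gene had at least 5 reads in every control GM library and none in any MK5-depleted one, and none had the reverse pattern.

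Genes of chromosome 5, which carries Mapkapk5, were lower as a group, a pattern noticed after the values were seen. The median log2 fold change of its 914 tested genes was -0.098, and the medians of the other 19 chromosomes lay between -0.029 and 0.025. Of these genes 63 were called lower (6.89%) and 19 higher (2.08%). The shift was alike before and after Mapkapk5, with medians of -0.098 over 588 genes and -0.100 over 325. Relative to the mean of the control libraries, the MK5-depleted libraries stood at -0.086, -0.096 and -0.097 and the controls within 0.001 of 0. The difference in the mean level of the chromosome was -0.093 with no overlap (exact two-sided permutation p = 0.1, the smallest that 3 against 3 libraries allow). Leaving out any library kept the median between -0.100 and -0.088. At DM2 the median was -0.076, where the other chromosomes ranged from -0.178 to 0.113. In ERK3-depleted GM chromosome 5 was at -0.015, and chromosome 9, which carries Mapk6, was at -0.086 there and at -0.016 in MK5-depleted GM. Both comparisons use the same control libraries.

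**Figure D4:**
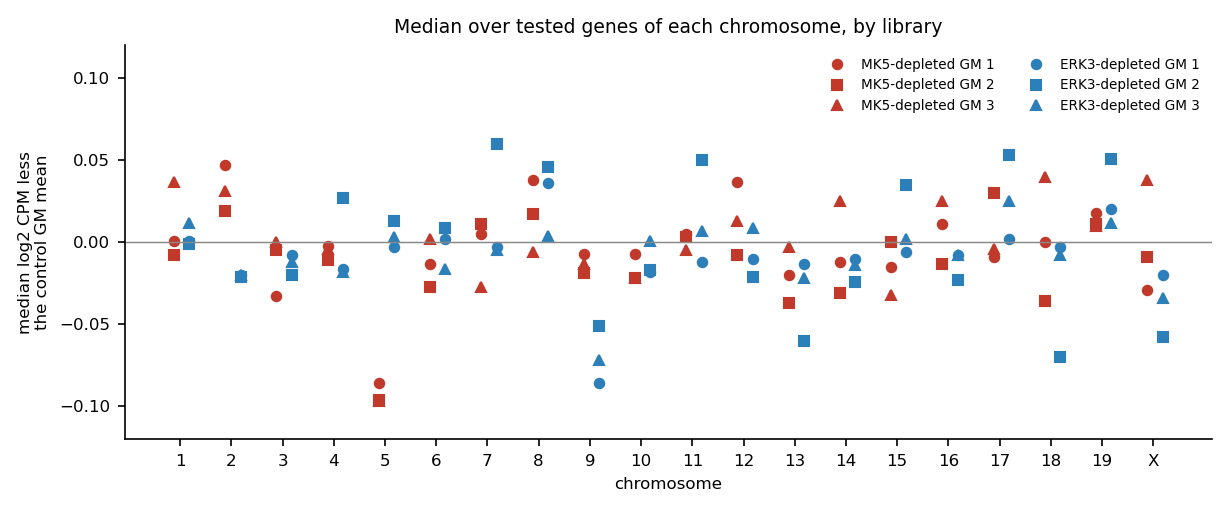
Median log2 CPM of the tested genes of each chromosome in each depleted GM library, less the mean of the 3 control GM libraries; red is MK5-depleted, blue ERK3-depleted, and the symbol shape gives the library number. The MK5-depleted libraries lie at -0.086, -0.096 and -0.097 on chromosome 5, apart from their values on the other chromosomes (-0.037 to 0.047).

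The MK5-depleted and ERK3-depleted lines were compared directly in GM, since the kinases bind each other. No gene was called between them (0.0% of 13939), while 1167 genes (8.37%) had an unadjusted p under 0.05, and DESeq2 called 11 and the fit with no filter on low counts 165. Against the same controls, 946 genes were called in the ERK3-depleted line (6.79%). The values of that line are given only side by side, since the controls are shared. Enpp2 stood at -2.58 in the MK5 line and -1.58 in the ERK3 line (both called), Cdkn1a at -0.50 and -0.17 (called in MK5 only), Ccnd2 at 0.83 and 0.26 (MK5 only), H19 at 1.21 and 1.16 (both called), and Nefl at 2.47 and 2.37 (both called). The difference between the lines was not called for any of them, with -1.0 for Enpp2 (edgeR adjusted p = 0.545), -0.32 for Cdkn1a (adjusted p = 0.397) and 0.57 for Ccnd2 (adjusted p = 0.362). The medians of the replication list were 0.56 and 0.48 and those of the mitosis list 0.58 and 0.40.

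After 2 days of differentiation the same lines were sequenced in libraries that share none with GM, and 6288 genes were called between MK5-depleted and control (45.1%). Of the 1178 genes called in GM, 1039 had the same sign there (88.2%), against 59.7% of all tested genes, and 689 were called in the same direction, which is 58.5% of the GM calls and 11% of the DM2 calls. In the opposite direction 16 were called. On the log2 scale at DM2 Nefl stood at 2.55, Stmn4 at 2.87, Atf3 at 2.34 and Enpp2 at -2.05, all called there. The connective tissue genes Prg4 and Pi16 stood at 0.35 and 0.48 at DM2, and their difference between the media was called (2.21 ± 0.65, edgeR adjusted p = 0.0281, and 2.20 ± 0.41, adjusted p = 0.00533). Id2 changed sides, at 0.71 in GM and -0.83 at DM2 (difference -1.55 ± 0.22, adjusted p = 0.00163), and so did the laminin receptor subunit Itga6, at 0.80 and -0.53 (-1.33 ± 0.24, adjusted p = 0.00447). A difference between the media was called for 14.3% of the GM calls and 18% of all genes.

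The interferon response list differed between the media. At DM2 22 of its 36 tested genes were higher and 4 lower, with a median of 0.79, against 0 and 3 in GM, and 22 had a called difference toward higher values at DM2, against 8.54% of all genes. At DM2 22.2% of all genes were higher and 22.9% lower. The replication list had 24 of 37 genes higher there (median 0.48), and the mitosis list 25 of 32 (median 0.68). The sterol list had 10 of 34 higher and 1 lower at DM2 (median 0.12), and the ATF4 list 10 of 30 higher and 1 lower (median 0.20). In both lists the share of higher genes was somewhat above the 22.2% of all genes, and that of lower genes far under the 22.9%. The FoxO target list had 4 higher and 15 lower (median -0.22). Ribosomal protein genes, with 0 of 38 called in GM (1 with the replicate block) and a median of 0.07, had 33 higher at DM2.

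**Figure D5:**
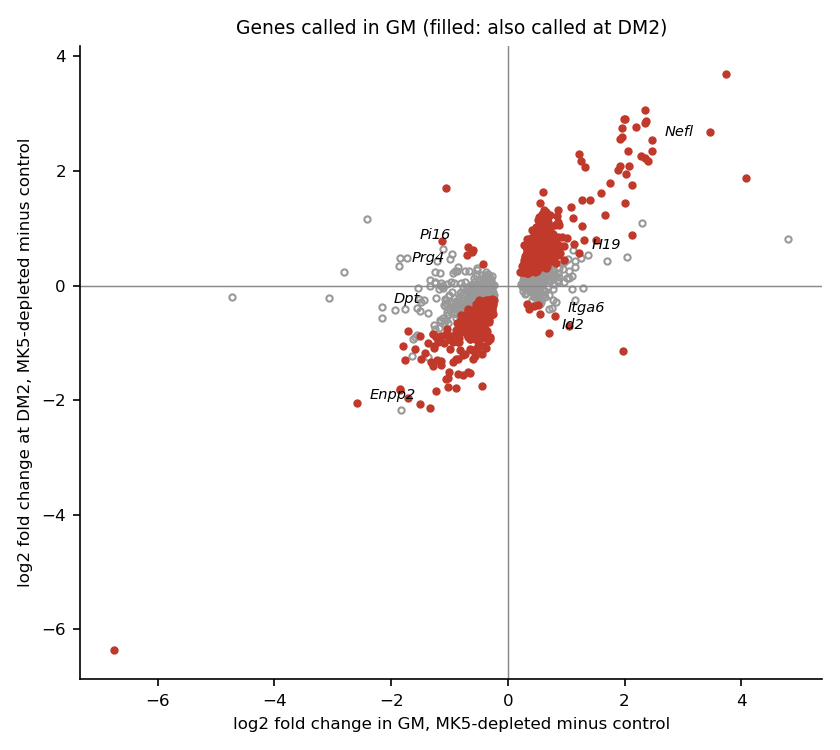
Log2 fold change at DM2 against that in GM (both MK5-depleted minus control) for the 1178 genes called in GM; filled red points were also called at DM2, open points were not. Of these genes 1039 have the same sign in both media, and Id2, Itga6, Prg4 and Pi16 lie in quadrants of opposite sign; the point at the lower left is G6pc, which had no read in the depleted libraries, so its fold is not a measured size.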

How the data were processed

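RNA from C2C12 cells was poly-A selected and sequenced as stranded libraries, per the labels' protocols. The authors used bcl2fastq 2.17, STAR 2.5.1b and RSEM 1.2.28 with GRCm38, per the submitters' processing notes. The deposited read counts per gene come in unstranded, forward and reverse columns, and the reverse column was used because it held 93.8 to 95.3% of the stranded counts. The deposited RSEM expected counts (rounded for tests) and deposited TPM served as checks. The 6 GM libraries held 24.1 to 31.2 M reads, of which 24.4 to 25.8% fell in the summary lines (unmapped, multimapping, ambiguous or outside genes) and were left out of library sizes and tests. Within the control and MK5-depleted GM groups no library was a copy of another. Of 50600 gene identifiers 50376 matched GENCODE M21, which gave symbols and positions.

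Tests used edgeR 4.0.16 in R 4.3.3: filterByExpr with 6 groups, TMM, and 1 robust quasi-likelihood model with a mean per group over all 18 libraries (12 residual degrees of freedom, with a common biological variation of 0.110 as a coefficient). P-values were adjusted by Benjamini-Hochberg over 13939 genes within a contrast. The standard error is the size of the log2 fold change over the square root of F, and list levels used log2 CPM with a prior count of 2. On simulated data with 200 of 13939 genes changed, the MK5 comparison in GM called 30 of 50 genes changed 1.5-fold, 39 at 2-fold, 46 at 3-fold and 48 at 4-fold, with 18 false calls. The simulated counts varied independently from gene to gene. No simulated library stood apart as control library 2 did, so these figures do not cover that case.

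Groups came from the labels. Replicate numbers from the titles were checked for pairing: same-numbered MK5-depleted and control GM libraries deviated from their group means with correlations of 0.182, 0.190 and 0.142 across genes, so the fit with the number as a block is given beside counts that it moves by over 1.5 times. The 36 gene lists and the rule for named genes were chosen with earlier results of these data known. The rule names 5 fixed genes, up to 3 called members with the largest change of each list, and the 10 rising and 10 falling most that reach 5 CPM on average in the higher group, have groups that do not overlap and carry a symbol other than that of a clone or predicted gene. Alternatives were RLE size factors, DESeq2 1.42.0, no filter, 1 CPM in 3 libraries, the replicate block, the contrast's libraries alone, RSEM expected counts, limma-trend (limma 3.58.1) on log2(TPM + 1), unstranded counts, offsets for gene length and GC content with and without the block, an adjusted p under 0.01, and each library left out. Promoter windows were those of RefSeq. A few members of the named lists are not reported here by name.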

Additional observations from a re-analysis of the deposited data

Results flagged for a closer look

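Genes named in the report or below are listed here because the MK5-depleted minus control difference changed between the media, by the edgeR interaction test. Each value is the log2 fold change at DM2 less that in GM, ± standard error. Higher relative to control at DM2 than in GM were Prg4 (2.21 ± 0.65, adjusted p = 0.0281), Pi16 (2.20 ± 0.41, adjusted p = 0.00533), the matrix protein Dpt (1.78 ± 0.56, adjusted p = 0.0377), the interferon-induced GTPase Gbp3 (1.36 ± 0.31, adjusted p = 0.0113), the sodium channel Scn7a (1.29 ± 0.34, adjusted p = 0.0191), the copper protein Cp (1.19 ± 0.29, adjusted p = 0.0134), Igfbp4 (1.17 ± 0.27, adjusted p = 0.0117) and the actin-binding Tagln2 (0.57 ± 0.15, adjusted p = 0.0203). In GM 7 of these 8 genes were called lower than control, and Tagln2 was called higher (0.41). Without control GM library 2 the GM calls of Prg4, Pi16, Dpt, Gbp3 and Tagln2 were lost, Gbp3 standing at -0.39. Those of Scn7a, Cp and Igfbp4 were kept.

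Lower at DM2 than in GM were Id2 (-1.55 ± 0.22, adjusted p = 0.00163), Itga6 (-1.33 ± 0.24, adjusted p = 0.00447), Rrm2 (-0.83 ± 0.27, adjusted p = 0.0394), Mapk6, which encodes ERK3 (-0.72 ± 0.17, adjusted p = 0.0123), Myod1 (-0.67 ± 0.18, adjusted p = 0.0208) and Gclm, a subunit of the glutathione synthesis enzyme (-0.67 ± 0.15, adjusted p = 0.0104). Mapk6 read 150, 119 and 124 CPM in control GM and 174, 142 and 175 in MK5-depleted GM (0.32 ± 0.12, not called, edgeR adjusted p = 0.105, and 0.0264 with the replicate block), and stood at -0.40 at DM2. Every control and MK5-depleted library of both media enters these differences. With all libraries 2512 genes had a called medium difference, and without control GM library 2 the number was 1032. It was 879 without MK5-depleted GM library 3 and 987 without MK5-depleted DM2 library 1.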

How the results depend on the processing

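Every one of the 1178 calls kept its direction when a library was left out, which the choice of these genes on all libraries largely fixes. The number of calls did not hold. With a library left out in turn it ranged from 42 to 1392 (22 to 762 higher and 20 to 641 lower), lowest without control GM library 2. The replicate block gave 2045 (1109 higher, 936 lower), length and GC offsets with the block 2497 (1311 and 1186), limma-trend on log2(TPM + 1) 168 (51 and 117), and an adjusted p under 0.01 left 221 (129 and 92). The block changed no other call of the named genes than that of Mapk6. Between MK5-depleted and ERK3-depleted GM the main 0 became 165 with no filter, 11 with DESeq2, 2 with the offsets and block, 1 with RSEM expected counts, and 0 to 1 with a library left out. The medium difference, 2512 genes, was called for 1657 with length and GC offsets, 3870 with only the libraries of the contrast, 366 at an adjusted p under 0.01, and 879 to 3008 with a library left out. At DM2 6288 calls became 4182 at an adjusted p under 0.01. Slc7a11 was the only named gene to reverse, at -0.002 with limma-trend on TPM. The causes of these moves were not tested. At this depth, with 3 libraries a group, 30 of 50 genes simulated at 1.5-fold were called, in a simulation where no library stood apart.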

Other observations

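Further gene lists held a few called genes each in GM, where 4.71% of all genes were higher and 3.74% lower. Of 23 tested smooth muscle and SRF target genes 3 were higher (13%) and 0 lower (2 with the replicate block): the actin-binding Tagln (758, 756 and 672 CPM in control and 1094, 893 and 1025 in MK5-depleted libraries; log2 0.46 ± 0.13, edgeR adjusted p = 0.0409, but 0.28 with adjusted p = 0.265 with unstranded counts, and not called when any 1 GM library other than MK5-depleted replicate 2 was left out), Tagln2 (0.41 ± 0.11, adjusted p = 0.0255) and the LIM protein Fhl1 (0.44 ± 0.12, adjusted p = 0.0304). Acta2, the smooth muscle actin, was not called (-0.08). Of 20 tested Notch pathway genes 2 were higher (10%, and 4 genes with the block), Hey1 and the ligand Jag2 (0.59 ± 0.14, adjusted p = 0.0185). Of 39 tested TGF-beta and BMP genes 2 were higher (5.13%, about the share of all genes), among them the BMP antagonist Nog (1.17, 0.439 and 0.601 CPM to 3.14, 1.80 and 2.37; 1.76 ± 0.38, adjusted p = 0.0115), and 3 were lower (7.69%, and 5 genes with the block), among them the co-receptor Tgfbr3 (-0.69 ± 0.18, adjusted p = 0.0234).

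Of 31 tested integrin and adhesion genes 2 were higher (L1cam and Itga6) and 2 lower (Itgb4 and Sdc2, at -0.51), or 6.45% each, near the shares of all genes, and 4 were lower with the block. Of 31 tested antioxidant genes 4 were higher (12.9%) and 1 lower (3.23%, and 4 genes with the block), the extracellular dismutase Sod3 (21.3, 34.3 and 23.8 CPM to 12.3, 18.1 and 12.2; -0.90 ± 0.18, adjusted p = 0.00884). In the sarcomere list the called genes were Des, the muscle intermediate filament (1048, 954 and 930 to 1338, 1231 and 1134 CPM; 0.34 ± 0.09, adjusted p = 0.0343), and the thin filament cap Tmod1 (1.13 ± 0.21, adjusted p = 0.00642). Igfbp2, which binds insulin-like growth factors, rose (546, 430 and 425 to 824, 678 and 733 CPM; 0.67 ± 0.16, adjusted p = 0.0184). Of the 7 tested genes of the mitochondrial genome none was called, with a median of -0.37.

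By annotated class, the 353 tested antisense genes had a median log2 fold change of -0.24 and 276 lincRNA genes one of -0.15, while 12309 protein-coding genes had -0.004. Of the antisense genes 0.85% were called, and of the protein-coding genes 9.33%.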
